A study of Mus musculus with 58 samples.

Results

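In mouse embryonic stem cells, 1948 chromatin regions carried a peak of overexpressed PSPC1 and a peak of overexpressed UTP6 and no peak in any of 7 other deposited chromatin immunoprecipitation sequencing (ChIP-seq) lists. They were found by merging all peaks of the 9 lists that shared at least 1 bp into 67384 regions and keeping those with exactly this pair of lists. The members made up 2.89% of all regions. Among regions with a UTP6 peak and none of the other 7 lists, 12.8% also had an overexpressed PSPC1 peak. Among regions with an overexpressed PSPC1 peak and none of the other 7 lists, 45.6% also had a UTP6 peak. The members were thus selected on the presence of peaks in the lists themselves, so the peak counts, scores and widths below are a description and carry no test.

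The 9 lists came from 2 libraries of a PSPC1 knock-in at the endogenous gene (AID-FB(KI)-PSPC1, in CJ9 cells) and 1 library each of overexpressed PSPC1, UTP6, UTP3, CIRH1A, hnRNPU, SAFB and SAFB2 (FB(OE) lines made from BirA J1 cells). All were labelled strain 129/Ola, untreated, and precipitated with 5 µg of FLAG antibody. Overexpressed PSPC1 was fixed with 1% formaldehyde for 10 minutes, and UTP6, UTP3, CIRH1A and the knock-in cells with 3%. The hnRNPU, SAFB and SAFB2 cells received 2 mM of the protein crosslinker DSP and 1% formaldehyde, with a streptavidin purification added. PSPC1 and UTP6 thus shared the parental line and the antibody but not the fixation, and knock-in PSPC1 differed from overexpressed PSPC1 in both line and fixation. Each overexpressed protein had 1 library, so differences between proteins have no replicate check. No list of untagged cells was used here.

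PSPC1 belongs to the same family as NONO and SFPQ, RNA-binding proteins that assemble on the long noncoding RNA Neat1 in paraspeckles and also associate with RNA polymerase II and nascent transcripts. UTP6 is a subunit of the small subunit processome, the large nucleolar particle that assembles on nascent ribosomal RNA and processes it. CIRH1A, also called UTP4, and UTP3 belong to the same particle. A ChIP-seq peak of such a protein marks DNA that was recovered with it after crosslinking, and the contact may run through RNA or other proteins.

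The members held 2014 overexpressed PSPC1 peaks, which were 8.84% of the 22785 in that list (95% Wilson interval 8.48 to 9.21%). They held 1948 UTP6 peaks, or 4.84% of 40217 (4.64 to 5.06%). These intervals, and those below, cover counting error only, since peaks of 1 library are not replicates. Most overexpressed PSPC1 peaks lay elsewhere: 73.0% were in regions with UTP6 and further lists, 10.2% in regions of PSPC1 alone and 7.96% in regions that lacked UTP6 but held further lists. Of the UTP6 peaks, 33.1% were alone, 35.4% lay with overexpressed PSPC1 and further lists, and 26.6% lay with further lists but without overexpressed PSPC1.

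Every member had exactly 1 UTP6 peak. In 1885 members it met 1 overexpressed PSPC1 peak, in 60 it met 2 and in 3 it met 3. The median member was 896 bp wide (quartiles 751 and 1137 bp). The overexpressed PSPC1 peaks were narrow, with a median of 241 bp and a range from 123 to 1393 bp. The UTP6 peaks had a median of 894 bp and a range from 324 to 5724 bp. Over the whole lists the medians were 326 and 1002 bp, so narrow PSPC1 peaks were not particular to the members. The UTP6 peak was typically 3.74 times as wide as the PSPC1 peak on it, and 3.79 times where further lists had a peak. A member was therefore in most cases a UTP6 peak with a short PSPC1 peak within it.

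The PSPC1 peak lay wholly inside the UTP6 peak in 1911 of the 2014 overlapping pairs, a share of 94.9% (93.8 to 95.8%). Nesting limits how far apart the midpoints can lie, and the distances were not set against an expected value. The median distance between the peak midpoints was 89.5 bp (binomial 95% interval of the median 84.5 to 96 bp), and 54.0% of pairs had midpoints within 100 bp of each other. The PSPC1 midpoint fell in the central 20% of the UTP6 peak in 50.9% of pairs (48.8 to 53.1%), in the outermost 20% on either side in 6.85% and outside the UTP6 peak in 1.34%. Where the pair was joined by further lists, the median distance was 162 bp, 34.7% of midpoints were within 100 bp, and 44.4% (43.7 to 45.2%) lay in the central 20%. The UTP6 peaks of those regions were also wider, with a median of 1363 bp. Nesting itself was alike in both classes, 94.9% against 94.3% (93.9 to 94.7%).

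**Figure D1:**
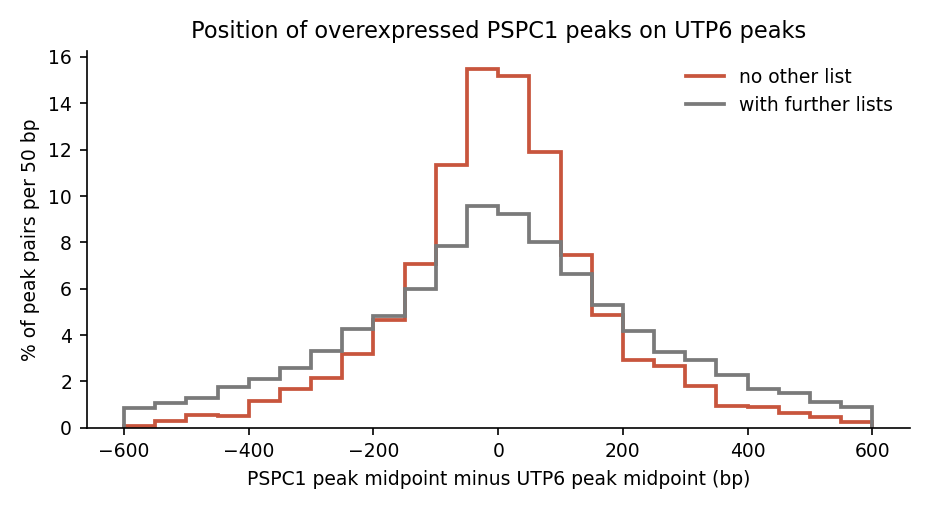
Distance from the UTP6 peak midpoint to the overexpressed PSPC1 peak midpoint (x axis, bp) against the percentage of overlapping peak pairs per 50 bp (y axis), for pairs in no other list and for pairs with further lists. Pairs in no other list pile up closer to 0, with a median distance of 89.5 bp against 162 bp; pairs beyond 600 bp are not drawn.

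Across the pairs in members, the scores of the PSPC1 and UTP6 peaks had a Spearman correlation of 0.15 and their widths one of 0.41. With further lists the values were 0.13 and 0.40. These are descriptions over 2014 and 15962 peak pairs that share their libraries and their stretch of genome.

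Members scored low in the overexpressed PSPC1 list. The score is the one the authors' peak caller gave, has no stated unit, and is used here within a list. Overexpressed PSPC1 peaks in members ran from 50.04 to 547, with a median of 66.6 against 88.0 over the whole list, whose lowest score was 50. In regions with UTP6 and further lists the median was 98.1, and in regions of PSPC1 alone it was 62.9. Of the member peaks, 40.9% fell in the lowest score quartile of the PSPC1 list and 4.37% in the highest. Only 12 reached the highest 10% of the list, and 4 the highest 5%. Regions of PSPC1 alone reached a score of 1793, which no member approached.

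In the UTP6 list, members sat between the UTP6-alone regions and the regions with further lists. Their UTP6 scores ran from 50.01 to 367, with a median of 101 against 111 for the whole list, 75.2 for UTP6 alone and 180 for PSPC1 and UTP6 with further lists. From the highest to the lowest quartile of the UTP6 list, the members' peaks were split 10.9, 31.9, 33.3 and 23.8%. Thus 29 of the 1948 members were in the highest 10% of the UTP6 list and 12 in that of the PSPC1 list. None were in both, but groups this small cannot show whether high ranks coincide. At the highest 25%, 213 members were within the UTP6 cut, 88 within the PSPC1 cut and 24 within both.

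Both scores were higher the more lists a region held. Over the regions with an overexpressed PSPC1 and a UTP6 peak, the median of the best PSPC1 score was 67.2 in the 1948 members, 77.7 in the 2423 regions with 1 further list, 98.8 in the 3785 with 2 further lists and 247 in the 119 regions with all 9 lists. The UTP6 medians at the same steps were 101, 135, 152 and 360. The interquartile ranges of regions that differed by 1 list overlapped for both proteins. Those of UTP6 did not overlap between 2 further lists (101 to 213) and all 9 lists (274 to 506). UTP6 peaks in members were also narrower than those with further lists within each UTP6 score quartile (1166 against 1552 bp in the highest, 706 against 901 bp in the lowest) and slightly wider than those of UTP6 alone (1096 and 679 bp).

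**Figure D2:**
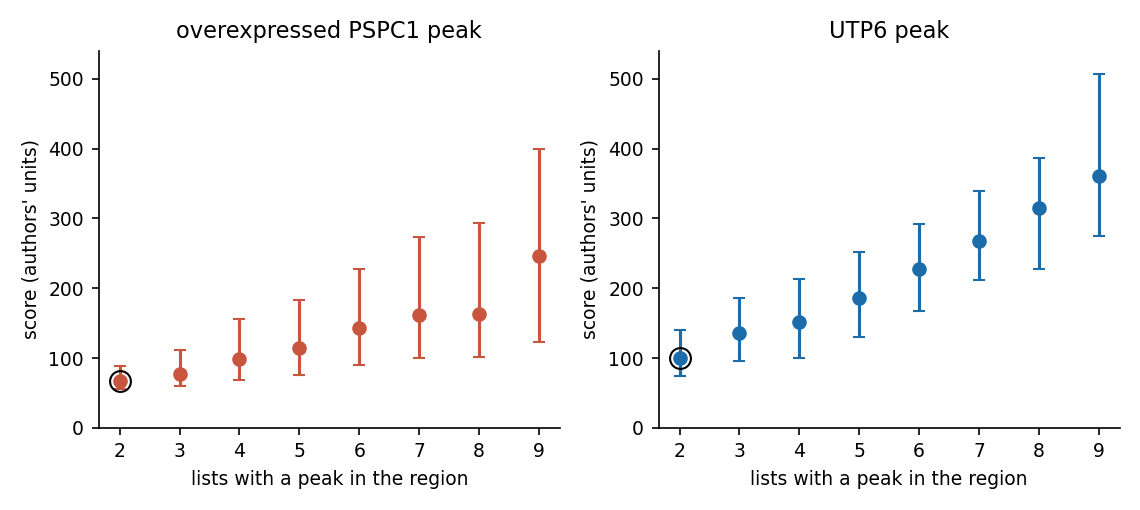
Score of the best overexpressed PSPC1 peak (left) and UTP6 peak (right) in each region against the number of lists with a peak in the region, for all regions with both; points are medians and bars run from the lower to the upper quartile. The members, circled at 2 lists, have the lowest medians, 67.2 and 101, and regions in all 9 lists the highest, 247 and 360.

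Which regions counted as members depended on the score minimum of the lists. When all lists were cut at a score of 100, 2102 regions qualified, but only 204 of the 1948 members (10.5%) were among them, and the other 1898 had not been members. With the 6670 highest scoring peaks of each list, 123 regions qualified, of which 17 were members. When only the minimum of the knock-in lists was raised to 50, the minimum of the other lists, all 1948 members were kept and 500 regions were added. Changes in how peaks were joined kept most members: an overlap of at least 100 bp kept 1926 and added 16 regions, windows of 500 bp around the midpoints kept 1901 and added 480, and joining peaks up to 500 bp apart kept 1834 and added 30.

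The share of UTP6 peaks with an overexpressed PSPC1 peak rose with the UTP6 score. Among UTP6 peaks in none of the other 7 lists it was 6.19% (5.35 to 7.15%) in the lowest score decile and 50.9% (38.3 to 63.4%) in the highest, where it rested on 29 of 57 peaks. By quartiles, from the highest, it was 35.9, 22.2, 12.4 and 6.98%. Over all UTP6 peaks the share with overexpressed PSPC1 was 80.9% in the highest decile and 15.6% in the lowest. The share of such pairs with no other list ran the other way, from 0.891% in the highest UTP6 decile to 27.1% in the lowest, and it was 29.3% (26.1 to 32.6%) in the eighth. High scoring UTP6 peaks therefore mostly had overexpressed PSPC1, but almost always with a peak in a further list. The knock-in PSPC1 lists count among the further lists.

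**Figure D3:**
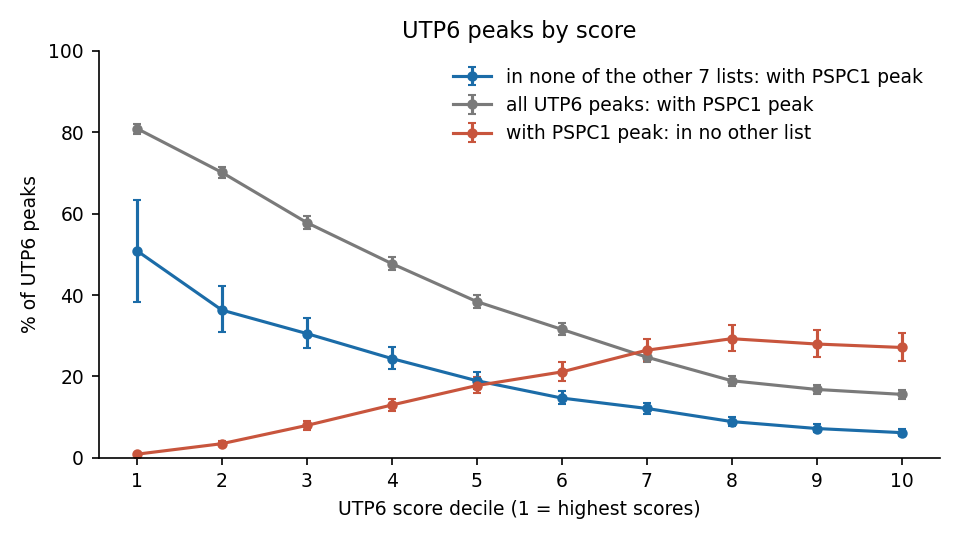
Percentage of UTP6 peaks (y axis) in each score decile of the UTP6 list (x axis, 1 = highest), with Wilson 95% intervals: UTP6 peaks in none of the other 7 lists that have an overexpressed PSPC1 peak, all UTP6 peaks that have one, and UTP6 peaks with PSPC1 that are in no other list. The first and second series fall from left to right (50.9 to 6.19% and 80.9 to 15.6%), and the third rises from 0.891 to 27.1%.

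As the only further list, UTP3 kept 840 regions out of the set, knock-in replicate 2 569, CIRH1A 349, hnRNPU 251, knock-in replicate 1 192, SAFB 153 and SAFB2 69. These counts leave out regions with a peak in both knock-in lists: leaving out both knock-in lists added 2164 regions, against 845 for UTP3. The counts were also not adjusted for list length. The lists held 14562 peaks for UTP3, 22926 and 18455 for knock-in replicates 2 and 1, and 9689 for CIRH1A. Those of hnRNPU, SAFB and SAFB2 held 10279, 10632 and 6670. The median UTP3 peak of the 840 regions scored 74.3, against 84.5 for the UTP3 list as a whole, and the median CIRH1A peak of its 349 regions scored 65.3 against 77.6. Counted from the highest score of each list, the median rank of these peaks was 52.5% for hnRNPU and 55.3% for knock-in replicate 2, near the middle of their lists, and between 61.5% for UTP3 and 67.8% for CIRH1A in the other 5. In the regions with UTP3 as the only further list, the median scores were 74.7 for overexpressed PSPC1 and 160 for UTP6. For a region of UTP6 and 1 further list, an overexpressed PSPC1 peak was present in 39.6% of cases with CIRH1A, 39.0% with hnRNPU, 35.4% with UTP3, 30.2 and 24.4% with knock-in replicates 2 and 1, 23.5% with SAFB and 19.4% with SAFB2. All exceeded the 12.8% of UTP6 peaks with no further list, but this comparison was not matched on UTP6 score or region width. With overexpressed PSPC1 and 1 further list, median UTP6 scores ran from 106 (knock-in replicate 1) to 160 (UTP3), against 101 in the members. Median widths were 1320 and 896 bp. Among UTP6 peaks without a further list, the share with overexpressed PSPC1 also rose with the UTP6 score. It was 6.98% in the lowest quartile and 35.9% in the highest. Whether the excess remains at equal score and width was not tested.

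The absence of a knock-in peak was set against all regions in which none of the 5 other overexpression lists had a peak. Overexpressed PSPC1 and UTP6 met in 4064 of these regions. A knock-in replicate 1 peak was present in 38.1% of them (36.6 to 39.6%) and a replicate 2 peak in 47.3% (45.8 to 48.9%), and the 1948 members are the 47.9% with neither. Where UTP6 had no overexpressed PSPC1 peak, the shares were 9.55% in replicate 1 and 14.0% in replicate 2, over 16177 regions. Where overexpressed PSPC1 had no UTP6 peak they were 24.4 and 27.4%, over 3395 regions. Both knock-in libraries thus gave the same order. The 2 libraries do not allow a test of it over samples, and the overexpressed PSPC1 and UTP6 lists are the same in both.

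This difference was present in every UTP6 score quartile. Region width was not matched: the median was 896 bp in the members and 762 bp for UTP6 alone. Whether the difference remains at equal width was not tested. With overexpressed PSPC1, the replicate 1 share was 38.6, 38.6, 37.8 and 37.4% from the highest to the lowest UTP6 quartile. Without it, the share was 13.7, 12.7, 10.1 and 7.56%. Replicate 2 gave 47.5, 49.1, 45.2 and 47.8% with overexpressed PSPC1 and 23.3, 19.2, 14.3 and 10.97% without. Among regions with both proteins, the knock-in share thus changed little with the UTP6 score, while it fell with the PSPC1 score. In the highest quartile of the overexpressed PSPC1 list, 88.3% of the UTP6 regions (85.8 to 90.4%) had a peak in at least 1 knock-in library. The share was 57.5% in the second quartile, 43.5% in the third and 32.9% (30.2 to 35.6%) in the lowest. For PSPC1 peaks without UTP6 it was 51.2, 42.6, 31.4 and 18.6%. The fall was thus not particular to regions with UTP6. Members are by rule the regions without a knock-in peak, so this fall and their low PSPC1 scores are not separate results. Leaving out both knock-in lists raised the set from 1948 to 4112 regions.

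**Figure D4:**
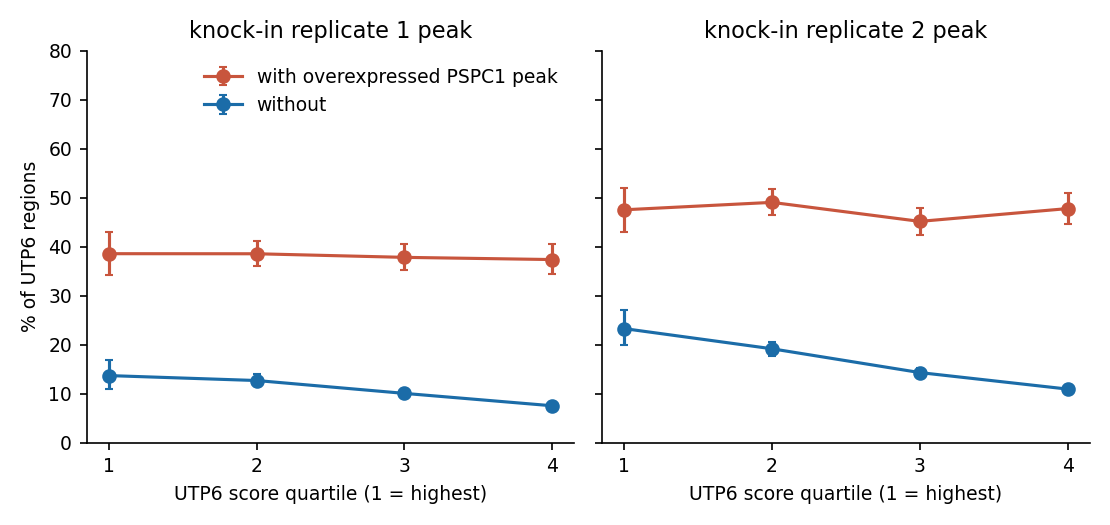
Percentage of UTP6 regions in none of the 5 other overexpression lists (y axis) that have a peak of knock-in replicate 1 (left) or 2 (right), by UTP6 score quartile (x axis, 1 = highest), with and without an overexpressed PSPC1 peak; bars are Wilson 95% intervals. With overexpressed PSPC1 the share stays between 37.4 and 38.6% in replicate 1 and 45.2 and 49.1% in replicate 2, above the regions without it in every quartile.

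Lack of overlap did not mean distance. Another list had a peak within 1 kb of 9.70% of the members and within 10 kb of 51.8%, and the median distance to the nearest was 9501 bp. For UTP6-alone regions the values were 6.80%, 41.7% and 13407 bp, and for regions of overexpressed PSPC1 alone 10.1%, 48.6% and 10675 bp. A knock-in peak lay within 10 kb of 22.6% of the members in replicate 1 and 28.3% in replicate 2, against 16.7 and 21.6% for UTP6 alone. UTP3 peaks were within 10 kb of 16.0% and CIRH1A peaks within 10 kb of 11.6% of the members, between the values for UTP6 alone (13.0 and 8.44%) and for overexpressed PSPC1 alone (20.2 and 17.3%). With no other peak allowed within 5 kb, 1324 members remained. Gaps between neighbouring regions of a class depend on how many regions it holds, and whether the members cluster was not tested. The median gap between neighbouring members was 583 kb, and 1.46% of the gaps were at most 10 kb. Regions of overexpressed PSPC1 alone, 2324 in number, had a median gap of 541 kb and 10.8% of gaps within 10 kb. Of these regions, 188 (8.09%) lay on sequence without a position, against 0.616% of the members, and gaps there were not counted apart. The 13318 UTP6-alone regions had a median gap of 95.3 kb and 8.56% within 10 kb.

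Members lay on every autosome and on X. The assembled Y held 0, and 12 members were on sequence without a position, of which 7 were on chrY_random, 1 on chrUn_random and 4 on the random sequence of other chromosomes. Chromosome 7 held 160 members, or 8.21% (7.07 to 9.52%), against 6.00% of the UTP6-alone regions (5.61 to 6.42%) and 6.23% of the regions with further lists. Of the UTP6 regions on chromosome 7 in none of the other 7 lists, 16.7% (14.5 to 19.2%) were members, against 12.8% over all chromosomes, and the interval overlapped that of chromosome 18, 15.4% (12.4 to 19.1%). On chromosome 1 the share was 9.51% (7.84 to 11.5%), next to 9.92% (7.82 to 12.5%) on chromosome 14. Chromosomes 7 and 1 had the highest and lowest of these shares among the autosomes and X. The intervals do not allow for picking them from all chromosomes. Chromosome 1 held 94 members, 4.83% of the total, against 6.71% of the UTP6-alone regions and 9.10% of those with further lists. The most members were on chromosome 2, with 164 or 8.42%, against 7.39% of the UTP6-alone regions and 7.17% of those with further lists. With both knock-in lists left out, the shares of the set were 6.61% for chromosome 1 and 7.51% for chromosome 7, and those of UTP6 alone 8.71 and 6.06%. The excess on chromosome 7 over UTP6 alone was thus smaller without the knock-in lists, while chromosome 1 stayed below UTP6 alone. No test over libraries was possible.

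**Figure D5:**
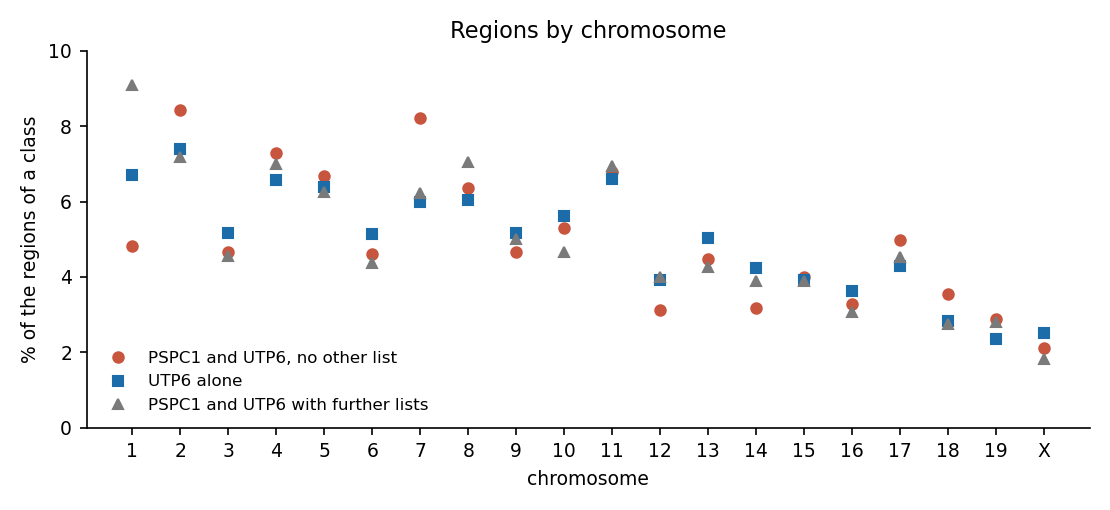
Percentage of the regions of a class (y axis) on each chromosome (x axis), for regions of overexpressed PSPC1 and UTP6 in no other list, of UTP6 alone, and of both proteins with further lists; Y and sequence without a position are not drawn. Chromosome 7 holds 8.21% of the members, 6.00% of UTP6 alone and 6.23% of the regions with further lists. The same shares on chromosome 1 are 4.83, 6.71 and 9.10%.

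Regions were named by their mean rank in both lists, in positions of the mm9 build counted from 1. The leading member was chr17:23012139-23015023, with 2 PSPC1 peaks under a 2885 bp UTP6 peak. Its best PSPC1 peak scored 238 and its UTP6 peak 286, which put them in the highest 11.6% and 7.74% of their lists, and the nearest peak of another list was 56096 bp away. The member at chr3:94640810-94642622 followed, with a PSPC1 score of 287 and a UTP6 score of 238. Its PSPC1 peak was 1038 bp wide against a member median of 241 bp, and its midpoint was 48.5 bp from the UTP6 midpoint. Next came chr4:97988712-97989709, with scores of 202 and 266 and midpoints 18.5 bp apart. The member at chr19:53403527-53404942 scored 276 and 221, and that at chr5:118605004-118606046 scored 187 and 279. The other 10 of the 15 leading members lay on chromosomes 4, 5 (2 regions), 10, 11, 12, 14, 17, 18 and X. Their PSPC1 scores ran from 133 to 272 and their UTP6 scores from 190 to 362, so even the leading members stayed far below the highest scores of 3100 and 3177 in these lists.

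Some members were uneven. At chr4:102760839-102761552 the PSPC1 peak scored 547, the highest of any member, while its UTP6 peak scored 50.01, next to the minimum of the list. At chr5:26839821-26840503 the scores were 534 for PSPC1 and 61.7 for UTP6, with no other list within 128831 bp. At chr17:28137497-28138440 they were 342 and 63.2. In these 3 members the UTP6 peak was 443, 577 and 944 bp wide, against a member median of 894 bp. The reverse was seen at chr6:71582794-71583998, with a UTP6 score of 277 and a PSPC1 score of 50.4, and at chr2:168039127-168040306, with 341 and 53.1. There the PSPC1 peaks were 161 and 224 bp wide and their midpoints lay 63 and 38 bp from the UTP6 midpoint. At chr7:100566148-100567456, with 265 for UTP6 and 53.8 for PSPC1, a peak of another list was 193 bp away, so this member was nearly excluded.

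The widest members were chr8:19771057-19776780 with 5724 bp, chr4:144997229-145001987 with 4759 bp and chr19:23161367-23165558 with 4192 bp. Their UTP6 scores were 84.5, 125 and 118, against a list median of 111, and their PSPC1 scores were at most 72.2. Just inside the 1 bp minimum, the PSPC1 and UTP6 peaks of chr12:42113611-42114529 overlapped by 8 bp, those of chr2:95100541-95101257 by 13 bp and those of chr7:16486024-16487425 by 21 bp. Just outside it, the pair on chromosome X with the PSPC1 peak at 22458755 to 22458970 was separated from its UTP6 peak by 3 bp, and pairs on chromosomes 4 and 15 by 10 and 23 bp. In all, 10 PSPC1-alone peaks were within 100 bp of a UTP6-alone peak and 60 within 1 kb, few beside the 1948 members.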

How the data were processed

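Peak lists of 9 of the 58 samples were used, and the other 49 samples were not analysed here. The authors deposited 1 list per library, with a position, a peak name and a score for each peak. The deposited score has no stated unit. The peak names carry the name MACS, and its version, threshold and control library are not given in the sources used here. Per the submitters' processing notes the build was mm9, and the tools named were CASAVA, Bowtie2 and TopHat. Read depth is unknown. The lowest score was 30 in the knock-in lists and about 50 in the others, so lists differ in stringency.

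Peaks of all lists sharing at least 1 bp were merged, and each region was classed by the lists in it. Ranks are percentiles within a list, counted from the highest score, and a region's score in a list is that of its best peak where regions are compared. Shares carry Wilson 95% intervals. No test was run, since each overexpression list is 1 library and the lists define the members. Merging was tested on simulated lists. The members, comparisons and rules were chosen with earlier results of these data known. Named regions were the 15 with the best mean rank, 5 of each kind high (highest 10%) in one list and lowest in the other, the 3 widest, and the 3 with the smallest overlap beside the 3 nearest misses. Of each group of 5, the first 3 are printed. Promoter share, GC content, motifs, sequences and gene lists had been planned and were not run, as the annotation and sequences used here were of another build, so no region is assigned to a gene. The software was pandas 2.3.3 and numpy 2.4.6 under Python 3.11.15, with intervals from scipy 1.17.1 and figures from matplotlib 3.10.9.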

Additional observations from a re-analysis of the deposited data

How the results depend on the processing

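The number of regions, 1948, stayed within 1.5 times under 14 of 16 alternatives. It became 123 when each list was cut to its 6670 top scores and 4112 with both knock-in lists left out, where fewer peaks or fewer lists enter by construction. The share of overexpressed PSPC1 peaks in members, 8.84%, and that of UTP6 peaks, 4.84%, moved beyond their intervals under 12 alternatives each. They were 10.8 and 5.92% with windows of 500 bp, 21.9 and 9.37% at a score of at least 100, 11.2 and 6.09% at a score of at least 50, and 1.84 and 1.84% with the same number of peaks per list. Without 1 knock-in replicate they ranged from 9.76 to 11.6% and from 5.34 to 6.31%, with 2146 to 2536 regions and median distances of 90.5 to 93.5 bp. With 1 exclusion list left out they were 10.1 and 5.48% for hnRNPU, 9.62 and 5.26% for SAFB, 10.5 and 5.72% for CIRH1A, and 12.8 and 6.95% for UTP3. With both knock-in lists left out they were 19.4 and 10.2%, and with no other peak within 5 kb 6.00 and 3.29%. The median distance between midpoints, 89.5 bp, moved to 113 bp at a score of at least 100, 102.5 bp with equal list lengths, 97.5 bp without UTP3 and 117 bp without both knock-in lists. Except where list or peak numbers changed by construction, the cause was not tested. Leaving out both knock-in lists and the 5 kb rule were chosen after seeing the data. Other promoter windows and GC windows were not run. No paired analysis was possible because, among the lists used here, every group other than the knock-in had a single library. Unknown read depth limits every statement on which lists lack a peak.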

Other observations

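The members were spread over 1162 windows of 1 Mb, and 703 of these held 1. The windows with the most members, picked after their counts were seen, were 2 windows of chromosome 7 with 9 members each, at 19 to 20 Mb and at 31 to 32 Mb. They also held 11 and 20 regions of UTP6 alone, 4 and 2 of overexpressed PSPC1 alone, and 16 and 15 of both proteins with further lists. The window at 30 to 31 Mb of the same chromosome held 7 members. The whole set held 1948 members and 13318 UTP6-alone regions. The windows were picked for many members, so their ratio of members to UTP6-alone regions cannot be set against that of the whole set.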
